A study of Mus musculus with 16 samples.

Results

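Malat1 and Neat1 are neighbouring mouse genes for long noncoding RNAs that stay in the nucleus. They were taken by name, as fixed intervals of chromosome 19 in the genome build mm9, 5793000 to 5806000 for Malat1 (13 kb) and 5822000 to 5849000 for Neat1 (27 kb). Occupancy had been mapped by chromatin immunoprecipitation with sequencing (ChIP-seq) in neural progenitor cells derived from the mouse embryonic stem cell line V6.5. RNA polymerase II (Pol II), Med26 and Cdk8 were each mapped in cells 72 hours after transfection with Cbx3 siRNA and in cells given a control siRNA against luciferase. Pol II and Cbx3 were also mapped in untreated cells, Cbx3 as 2 libraries (sets 1 and 2). All cells had gone through embryoid bodies for 4 days and were fixed with 1% formaldehyde. With 1 library for each antibody in an siRNA arm, a replicate check of the arms was not possible and no p-value is given. How far Cbx3 fell after its siRNA was not analysed here, and neural markers were not checked because the gene table used is of another build (GRCm38).

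The authors' files list 50 bp windows and a signal for each of them, and leave out windows below a minimum. Of the 1459926 windows listed in the 9 ChIP libraries, 337 lay in the 2 intervals, 266 of them in Malat1 and 71 in Neat1. Over the whole genome the libraries listed from 2721 windows (Med26, Cbx3 siRNA) to 923942 (Cbx3 set 1). The lowest listed signal lay between 6.01 and 9.02 in all of them. In every library the values were whole multiples of a step, and 50 steps were read as 1 sequencing read covering a window. This reading is inferred from the values, and under it 1 read was worth a signal of 1.1 in both siRNA Pol II libraries, 1.05 in untreated Pol II, 0.962 in both Med26 libraries and 1.41 in both Cdk8 libraries. In Cbx3, 1 read was worth 3.98 in set 1 and 2.18 in set 2. Sequencing depth cannot be read from these lists, so a difference in depth between libraries was not tested. Signal not particular to an antibody was not tested either, since the input libraries were not used here. The 2 Cbx3 sets differed widely over the genome: 13.1% of set 2 windows were listed in set 1, and 3.47% of set 1 windows in set 2.

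Malat1 RNA gathers at nuclear speckles, bodies rich in splicing factors, and is among the most abundant long noncoding RNAs of many cell types. A tRNA-like small RNA, mascRNA, is cut from its 3′ end. Neat1 RNA is the scaffold of paraspeckles, nuclear bodies that form around it while it is being made, and it has a short and a long form that share 1 start site. Med26 is a subunit of Mediator, the complex that links transcription factors to Pol II, and has been tied to the recruitment of elongation factors. Cdk8 is the kinase of the detachable Mediator module. Cbx3, also called HP1 gamma, binds methylated histone H3 lysine 9 and is also found in transcribed genes. Both genes are transcribed from higher to lower coordinates, so their start sites face the high end of each interval.

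The Malat1 promoter is shown because the strongest Pol II signal of the pair lay toward the start side of this gene. The RefSeq promoter sequence (GRCm38.p6, chromosome 19, minus strand) runs from 250 bases before the start to 50 after it.
Malat1 promoter: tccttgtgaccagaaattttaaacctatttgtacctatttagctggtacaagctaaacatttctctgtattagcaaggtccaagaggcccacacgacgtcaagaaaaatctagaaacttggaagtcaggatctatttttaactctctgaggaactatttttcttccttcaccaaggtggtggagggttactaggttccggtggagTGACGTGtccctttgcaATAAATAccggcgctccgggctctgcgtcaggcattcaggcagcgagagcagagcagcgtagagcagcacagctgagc
The capitals mark TGACGTG, which begins 45 bases before the start, and ATAAATA, which begins 28 bases before it. Both were picked after the sequence was read. On either strand they occur in 2.01% and 5.6% of the 32851 promoters of the table. A further 4 motifs were searched by plan on both strands, and none was found in this window. The TATA box letters TATAAA occur in 13.6% of all promoters, the CCAAT box letters CCAAT in 37.4%, the GC box letters GGGCGG in 35.7% and the E-box letters CACGTG in 7.15%. A match of letters is a description only. Where this start lies in mm9 was not looked up, as coordinates were not moved between builds.

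Summed over its 3 libraries, Pol II took up most of the listed length at both genes, and far more at Malat1 than at Neat1. At Malat1 it was listed over 4500 bp under Cbx3 siRNA, 5000 bp under control siRNA and 2950 bp in untreated cells. At Neat1, an interval of more than double the length, it was listed over 550 bp under Cbx3 siRNA, 1650 bp under control siRNA and 250 bp in untreated cells. Malat1 was thus the longer in all 3 Pol II libraries. Over the genome these libraries listed 5055, 5800 and 1743 kb, with lowest signals of 6.01, 6.01 and 9.02. Control siRNA over untreated, the ratio of listed lengths was 1.69 at Malat1, 6.6 at Neat1 and 3.33 over all windows. Cbx3 siRNA over control siRNA, it was 0.9, 0.333 and 0.871. Lengths at a gene therefore also follow how much each library listed. Med26 was listed at Malat1 over 250 bp under control siRNA and nowhere else at the pair. Cdk8 gave 50 bp at Malat1 under Cbx3 siRNA and 50 bp at Neat1 under control siRNA. Cbx3 set 1 gave 550 bp at Malat1 and 300 bp at Neat1, and set 2 gave none at Malat1 and 750 bp at Neat1. Both sets thus exceeded the 250 bp of untreated Pol II at Neat1. Set 2 also exceeded the 550 bp of Pol II under Cbx3 siRNA there. Over the genome, however, set 1 listed 46197 kb and set 2 listed 12243 kb. As much as at Neat1 was listed in 57% of 27 kb tiles of the genome for set 1 and in 1.82% for set 2. For Pol II the share was 2.97% in untreated cells and 3.49% under Cbx3 siRNA.

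**Figure D1:**
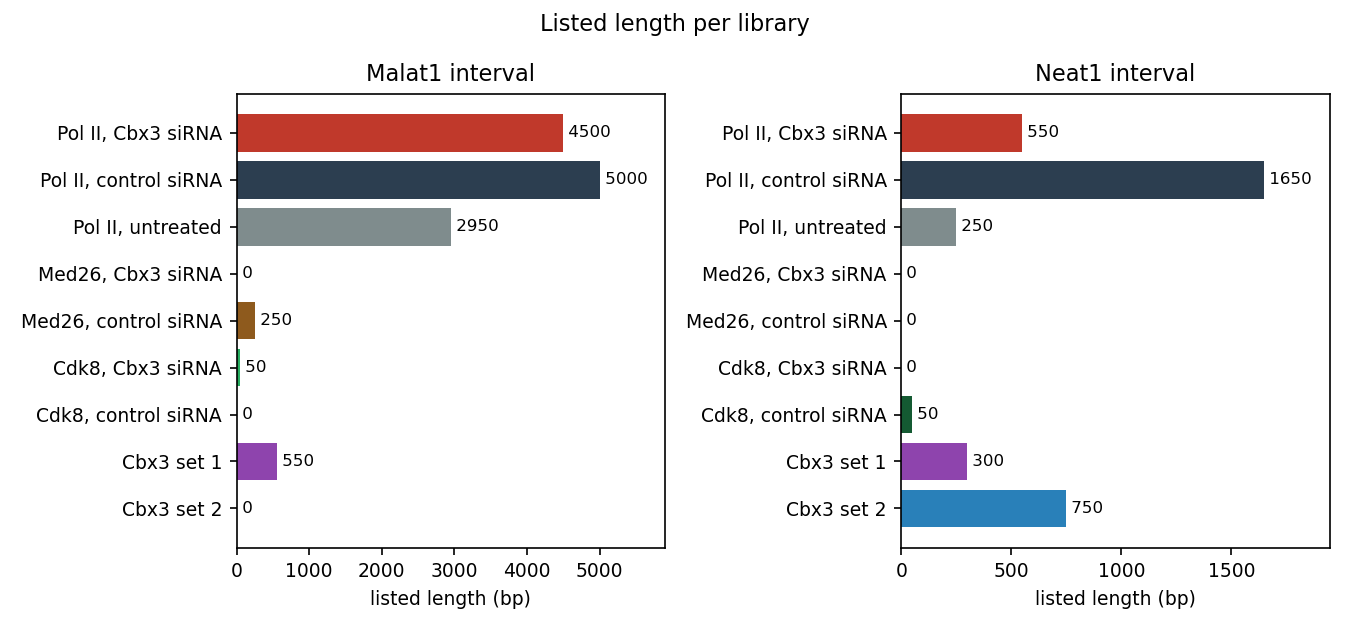
Listed length in bp per library (bars, 1 library each) in the Malat1 interval (left) and the Neat1 interval (right), with a scale of its own for each gene. Pol II bars are the longest at Malat1, with 4500, 5000 and 2950 bp, while at Neat1 control Pol II has 1650 bp and Cbx3 set 2 has 750 bp.

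Pol II peaked at the same 50 bp window of Malat1 in all 3 libraries, from 5802601 to 5802650. The signal there was 95 under Cbx3 siRNA, 124 under control siRNA and 93.0 in untreated cells. That is 6.45, 7.49 and 5.6 times the median listed window of the same library. Ranked by their highest window, after joining windows up to 200 bp apart, the Malat1 peak was region 16 of 16426 under Cbx3 siRNA, 14 of 16073 under control siRNA and 21 of 8183 in untreated cells. It therefore stood among the strongest Pol II sites of every library.

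The length covered was compared with tiles of the same size. The genome was divided into 203224 other tiles of 13 kb, up to the last listed window of each chromosome. Only 1 of them listed as much Pol II as Malat1 under Cbx3 siRNA, 2 did so under control siRNA and 2 in untreated cells. Any Pol II window at all was found in 6.53%, 6.22% and 3.42% of these tiles. Among 97850 other tiles of 27 kb, 3.49% listed as much Pol II as Neat1 under Cbx3 siRNA, 0.319% under control siRNA and 2.97% untreated. A Pol II window was found in 12.2%, 11.5% and 6.63% of the 27 kb tiles. By length Neat1 was thus also uncommon, though its signal was low.

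Along Malat1, Pol II formed 2 separate blocks. The first ran through the peak. It reached from 5799851 to 5803950 under Cbx3 siRNA, with 3800 bp listed, and from 5800101 to 5803900 under control siRNA, with 3500 bp listed. In untreated cells the same stretch was broken into 4 pieces, from 5799951 to 5803650. The second block lay over 5 kb below the peak, toward the 3′ side of the gene. It ran from 5794651 to 5795550 under Cbx3 siRNA (highest signal 15.8), from 5794601 to 5795350 under control siRNA (22.4) and from 5794701 to 5795450 in untreated cells (28.2). A short piece from 5794051 to 5794300, with signals from 7.94 to 14.8, lay below it in all 3 libraries. Between the blocks, control siRNA listed 3 short pieces with signals from 6.64 to 13.0, and neither other library listed any of these pieces.

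**Figure D2:**
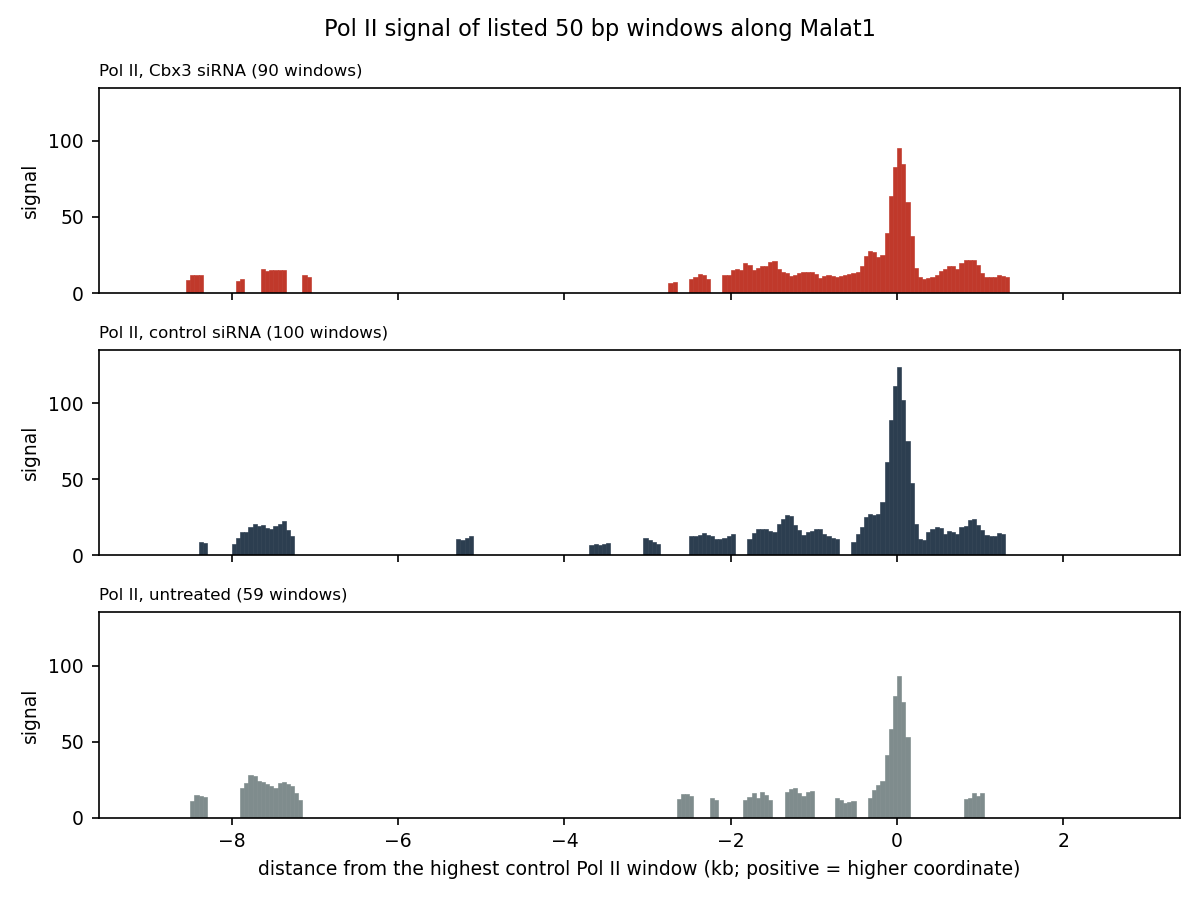
Pol II signal (authors' units) of each listed 50 bp window along Malat1, against the distance in kb from the highest control window; positive is the higher coordinate, and each panel is 1 library. All 3 libraries peak at the same window, with 95 under Cbx3 siRNA, 124 under control siRNA and 93.0 untreated, and all hold a second block between 7 and 9 kb below it.

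Neat1 showed a low Pol II peak near the high end of its interval. In untreated cells it was the whole Neat1 signal, 5 windows from 5845301 to 5845550 with values from 12.1 to 14.6. The same 5 windows were listed in both siRNA arms. Their values in order of position were 20.0, 24.4, 26.3, 21.5 and 14.1 under Cbx3 siRNA and 21.5, 22.4, 18.7, 15.9 and 14.7 under control siRNA. The arms overlapped: 3 windows were higher and 2 lower under Cbx3 siRNA. The highest Neat1 window was 1.78 times the median listed window of its library under Cbx3 siRNA, 1.35 times under control siRNA and 0.879 times in untreated cells. By highest window, 19.7%, 39.3% and 68.7% of all Pol II regions of these libraries were at least as high.

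Away from this peak the arms listed different parts of Neat1. Under Cbx3 siRNA 6 windows lay between 5841351 and 5842450, with signals from 6.6 to 12.7. Under control siRNA the pieces were 5843401 to 5843750 (highest 17.1), 5844251 to 5844350 (10.9) and 5846601 to 5847000 (14.1), and the peak itself extended from 5844851 to 5845800. No library listed Pol II over 5 kb below the highest control window. As no window there passed the minimum, weaker Pol II was not detectable in these lists.

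**Figure D3:**
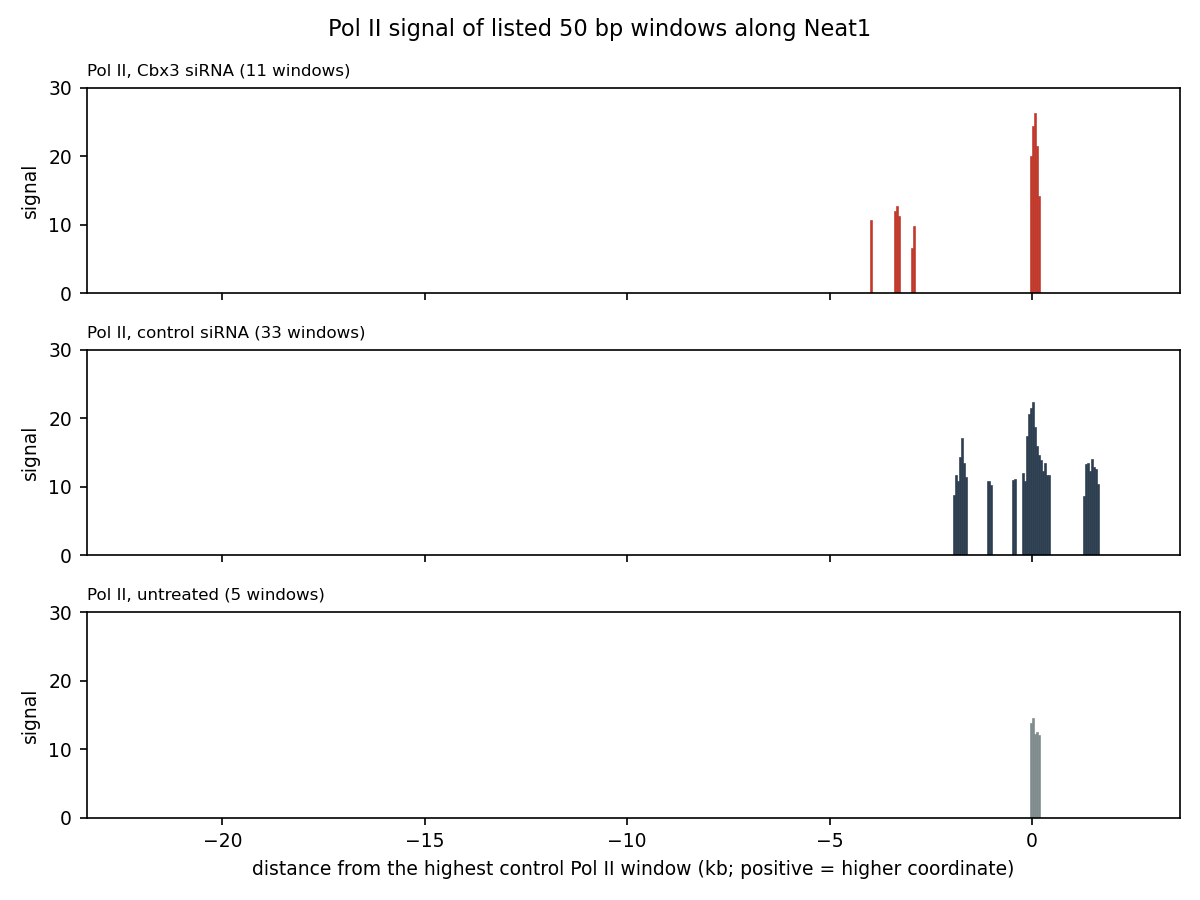
Pol II signal (authors' units) of each listed 50 bp window along Neat1, against the distance in kb from the highest control window; positive is the higher coordinate, and each panel is 1 library. The peak is shared by all 3 libraries, with highest values of 26.3 under Cbx3 siRNA, 22.4 under control siRNA and 14.6 untreated; other pieces appear in 1 siRNA arm each.

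Cbx3 siRNA against control siRNA was the main contrast for Pol II. At Malat1, 76 of the 100 control windows were listed again under Cbx3 siRNA (76%, exact binomial interval 66.4 to 84%), against 64.0% of all control Pol II windows. When any window within 200 bp counted, the share was 90% at Malat1, close to the 89.8% of all control windows. In the 76 windows listed in both arms the mean signal was 19.5 under Cbx3 siRNA and 23.5 under control siRNA. On the log2 scale, signal under Cbx3 siRNA minus that under control siRNA had a median of -0.25 at Malat1 and of -0.29 over all windows listed in both arms. Lower were 56 of the 76 Malat1 windows, against 74.2% of all such windows. At least 1.5-fold lower were 10 of the 76 windows (13.2%), against 24.2% of all windows, and at least 1.5-fold higher was 1 (1.32%), against 2.92%. Neighbouring windows share reads, so they are not independent and the binomial intervals are too narrow.

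The median difference varied along Malat1, while lower windows were the majority in every stretch, as they were over the genome (74.2%). In the highest control window and 200 bp to each side of it, all 9 windows were lower under Cbx3 siRNA. Their median log2 difference was -0.39, with a range from -0.64 to -0.28, and these neighbouring windows cover 1 peak. Among control windows at or above the library median, the median difference was also -0.39 over the genome, and -0.34 at Malat1. The peak window itself had 0.765 times the control signal. On the inferred 86 reads under Cbx3 siRNA and 113 under control siRNA, the interval of that ratio was 0.568 to 1.02. It included 1, but as the depth of each library is unknown it cannot tell whether the peak differed. In the 5 kb below the peak, 37 shared windows had a median of -0.09, and 25 of them were lower. The 2 windows with the most extreme ratios of the gene lay there, picked for their values. At 5801301 the signal was 11.0 under Cbx3 siRNA and 25.8 under control siRNA, a ratio of 0.425 (counting interval 0.185 to 0.95). At 5800801 it was 18.7 under Cbx3 siRNA and 10.8 under control siRNA, a ratio of 1.73 (0.735 to 4.15). Over 5 kb below the peak the median was -0.35, with 8 of 9 shared windows lower. The limits of these stretches were set after the profile was seen.

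At Neat1 fewer windows were listed again. Only 5 of the 33 control windows recurred under Cbx3 siRNA (15.2%, exact binomial interval 5.11 to 31.9%), against 64.0% of all control windows. When any window within 200 bp counted, the share was 42.4% at Neat1, against 89.8% of all control windows. Most of the 33 were weak: 6 reached the library's median listed signal, and 3 of these 6 were listed again, against 87.4% of all control windows of that class. The 6 had signals from 17.1 to 22.4, near the median of 16.6, while that class reached 157.6. These shares are therefore not matched for strength. In the 5 shared windows the mean was 21.2 under Cbx3 siRNA and 18.6 under control siRNA, and the median log2 difference was 0.12, from -0.11 to 0.49. None of the 5 differed by 1.5-fold. With each window missing from 1 arm set to the lowest listed signal of its library, the median over Neat1 became -0.90, so the direction at Neat1 depends on how unlisted windows are treated.

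The ratio of the genes within a library does not depend on a factor that scales all its windows alike. Whether the authors' signal was scaled in this way alone is not stated. The highest Neat1 window had 27.7% of the Malat1 peak signal under Cbx3 siRNA, 18% under control siRNA and 15.7% in untreated cells. The counting intervals on inferred reads were 17 to 44.3%, 10.4 to 28.6% and 8.36 to 28.1%, and they overlapped throughout.

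**Figure D4:**
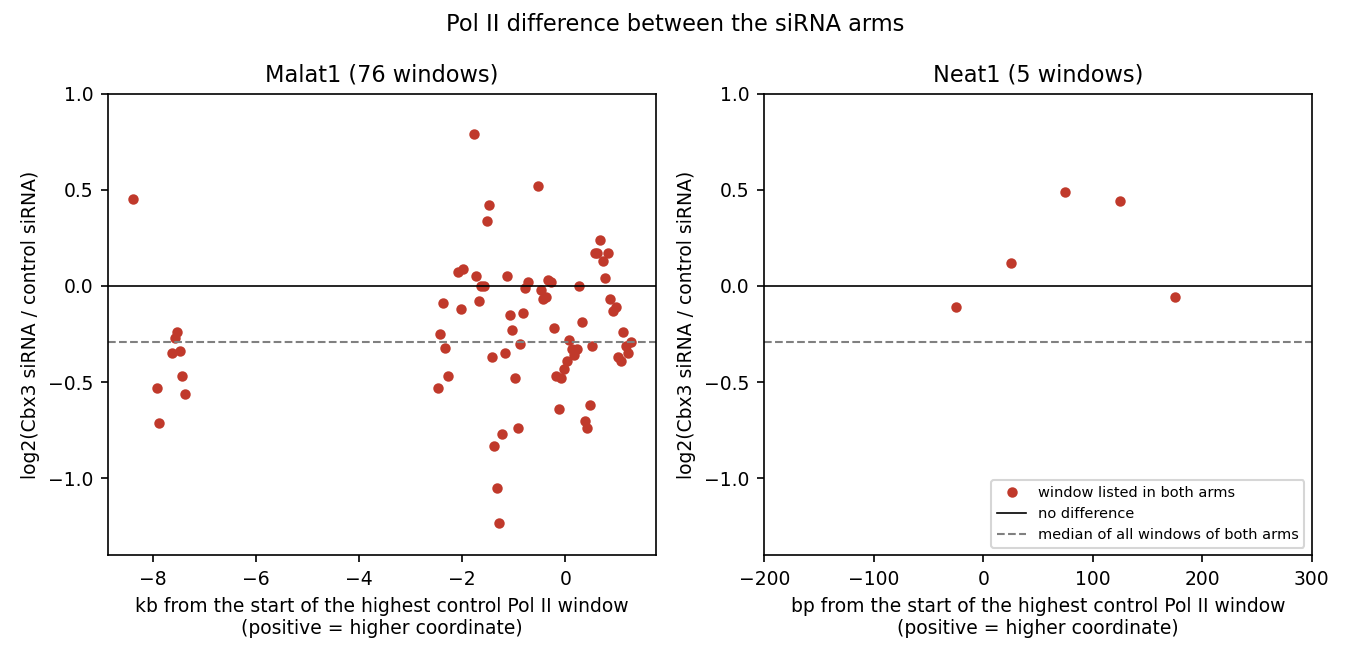
Log2 ratio of Pol II signal, Cbx3 siRNA over control siRNA, for each window listed in both arms (points), against distance from the highest control window, in kb for Malat1 (left) and in bp for Neat1 (right). The solid line is no difference and the dashed line the median of all such windows (-0.29); Malat1 points scatter around the dashed line with a median of -0.25, and the 5 Neat1 points lie above it, from -0.11 to 0.49.

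Control siRNA and untreated cells gave the other Pol II contrast, which shares the control library with the one above. At Malat1, 48 of the 59 untreated windows were listed under control siRNA (81.4%, exact binomial interval 69.1 to 90.3%), against 94.2% of all untreated windows. The median log2 difference in these 48, control siRNA minus untreated, was -0.02, while it was 0.60 over all windows listed in both libraries. Higher by at least 1.5-fold were 5 of the 48 (10.4%), against 51.5% of all windows, and lower by as much were 3 (6.25%), against 1.46%. Among untreated windows at or above the library median the values were -0.03 at Malat1 and 0.52 over the genome. Lower under control siRNA were 24 of the 48, against 12.0% of all windows. The Malat1 median mixes stretches that differed in sign, and how far it would vary between libraries cannot be told from 1 library each.

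Within Malat1 the difference varied along the gene. At the peak and 200 bp to each side, all 7 shared windows were higher under control siRNA, by 0.42 to 0.62 on the log2 scale, close to the 0.60 of all windows. In the 5 kb below, 11 of 21 shared windows were higher and the median was 0.03. Over 5 kb below the peak, 14 of 15 were lower under control siRNA, with a median of -0.35, where 12.0% of all windows of both libraries were lower. Most of these 15 windows adjoin each other in the second block and share reads, so they are not independent. The highest window there had 16.6% of the Malat1 peak under Cbx3 siRNA (counting interval 8.54 to 28.8%), 18.1% under control siRNA (10.4 to 28.6%) and 30.3% in untreated cells (19.2 to 47.7%). The intervals overlap, and with 1 library each a difference between preparations and an effect of transfection cannot be told apart. At Neat1 all 5 untreated windows were listed and higher under control siRNA, with a median log2 difference of 0.60, the value of the genome.

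Of the Mediator subunits, Med26 was listed at the Malat1 peak under control siRNA, and Cdk8 in single windows. Med26 under control siRNA had 5 windows at Malat1, from 5802501 to 5802750, with signals of 8.91, 12.1, 14.4, 12.8 and 10.6 in order of position. The highest of them was the Pol II peak window. It held the equivalent of 15 reads and was 1.47 times the library's median, and 14.4% of all control Med26 regions were at least as high. All 5 were also Pol II windows of the control arm, as were 76.8% of all control Med26 windows. Under Cbx3 siRNA none of the 5 was listed (exact binomial interval 0 to 52.2%), against 6.13% of all control Med26 windows, and so few windows cannot set Malat1 apart from the genome-wide fall of listed Med26. By length, 2.61% of 13 kb tiles held any control Med26 window and 0.465% listed as much as the 250 bp of Malat1. The lowest signal listed in the Cbx3 siRNA library stood for 6.24 reads. Med26 was thus not detectable above the minimum at Malat1 under Cbx3 siRNA, nor at Neat1 in either arm. A 27 kb tile held a Med26 window in 1.73% of cases under Cbx3 siRNA and in 5.17% under control siRNA.

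Cdk8 was listed in 1 window at each gene, each in another arm. At Malat1 it was 5803601 to 5803650 under Cbx3 siRNA, with a signal of 10.6, or 7.54 reads, 1 kb above the Pol II peak. This window was also listed in Cbx3 set 1, as were 15.0% of all Cdk8 windows under Cbx3 siRNA, and in all 3 Pol II libraries. At Neat1 it was 5839101 to 5839150 under control siRNA, with a signal of 6.01, or 4.26 reads, the equal of the lowest value listed. None of the control windows at Neat1 was listed under Cbx3 siRNA, where 24.7% of all control Cdk8 windows recurred. Single windows of so few reads do not show a difference between the arms.

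Cbx3 had been mapped in untreated cells only. In Neat1 both sets peaked at the same place, within the interval and away from listed Pol II. Set 1 listed 4 windows from 5838951 to 5839150 with signals of 50.7, 59.2, 68.3 and 61.4. Set 2 listed 11 windows from 5838801 to 5839350, with 66.5 as the highest, 4.88 times its median. The highest window of set 1 was 2.02 times its own median. On inferred reads the highest windows stood for 17.2 in set 1 and 30.5 in set 2. All 4 windows of set 1 were among those of set 2. By highest window this was region 3917 of 419145 in set 1 and 336 of 126451 in set 2, so 0.941% and 0.266% of regions were at least as high. Over the whole Neat1 interval, 4 of the 15 windows of set 2 were also in set 1 (26.7%), against 13.1% of all set 2 windows, and the 4 were 66.7% of the 6 windows of set 1. The site lay 6.25 kb below the highest control Pol II window. The single Cdk8 window of Neat1 was among the windows of both Cbx3 sets, as were 5.22% of all control Cdk8 windows.

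The other Cbx3 windows were listed in 1 set each. At Malat1 set 1 gave 11 windows in 5 places, and set 2 gave none, although 41.2% of 13 kb tiles held a set 2 window. The strongest place was 5803601 to 5803750, with signals from 67.7 to 76.5, at the high end of the main Pol II block. It was region 1951 of 419145 in set 1, with 0.47% of regions at least as high. A second, from 5794951 to 5795150 with signals from 39.0 to 55.8, lay in the Pol II block on the 3′ side. Single or paired windows stood at 5798751, 5799501 and 5800901, with signals from 37.0 to 54.3. The 11 windows stood for 9.3 to 19.2 inferred reads each. No Cbx3 window fell on the Pol II peak itself. At Neat1 set 1 alone listed 5835401 and 5836001, and set 2 alone listed 5827651 to 5827800 and 5844251. As set 1 windows were present in 78.2% of 13 kb tiles and 91.6% of 27 kb tiles, some set 1 signal in an interval of this length was usual, though few regions were as high as the strongest Malat1 place.

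**Figure D5:**
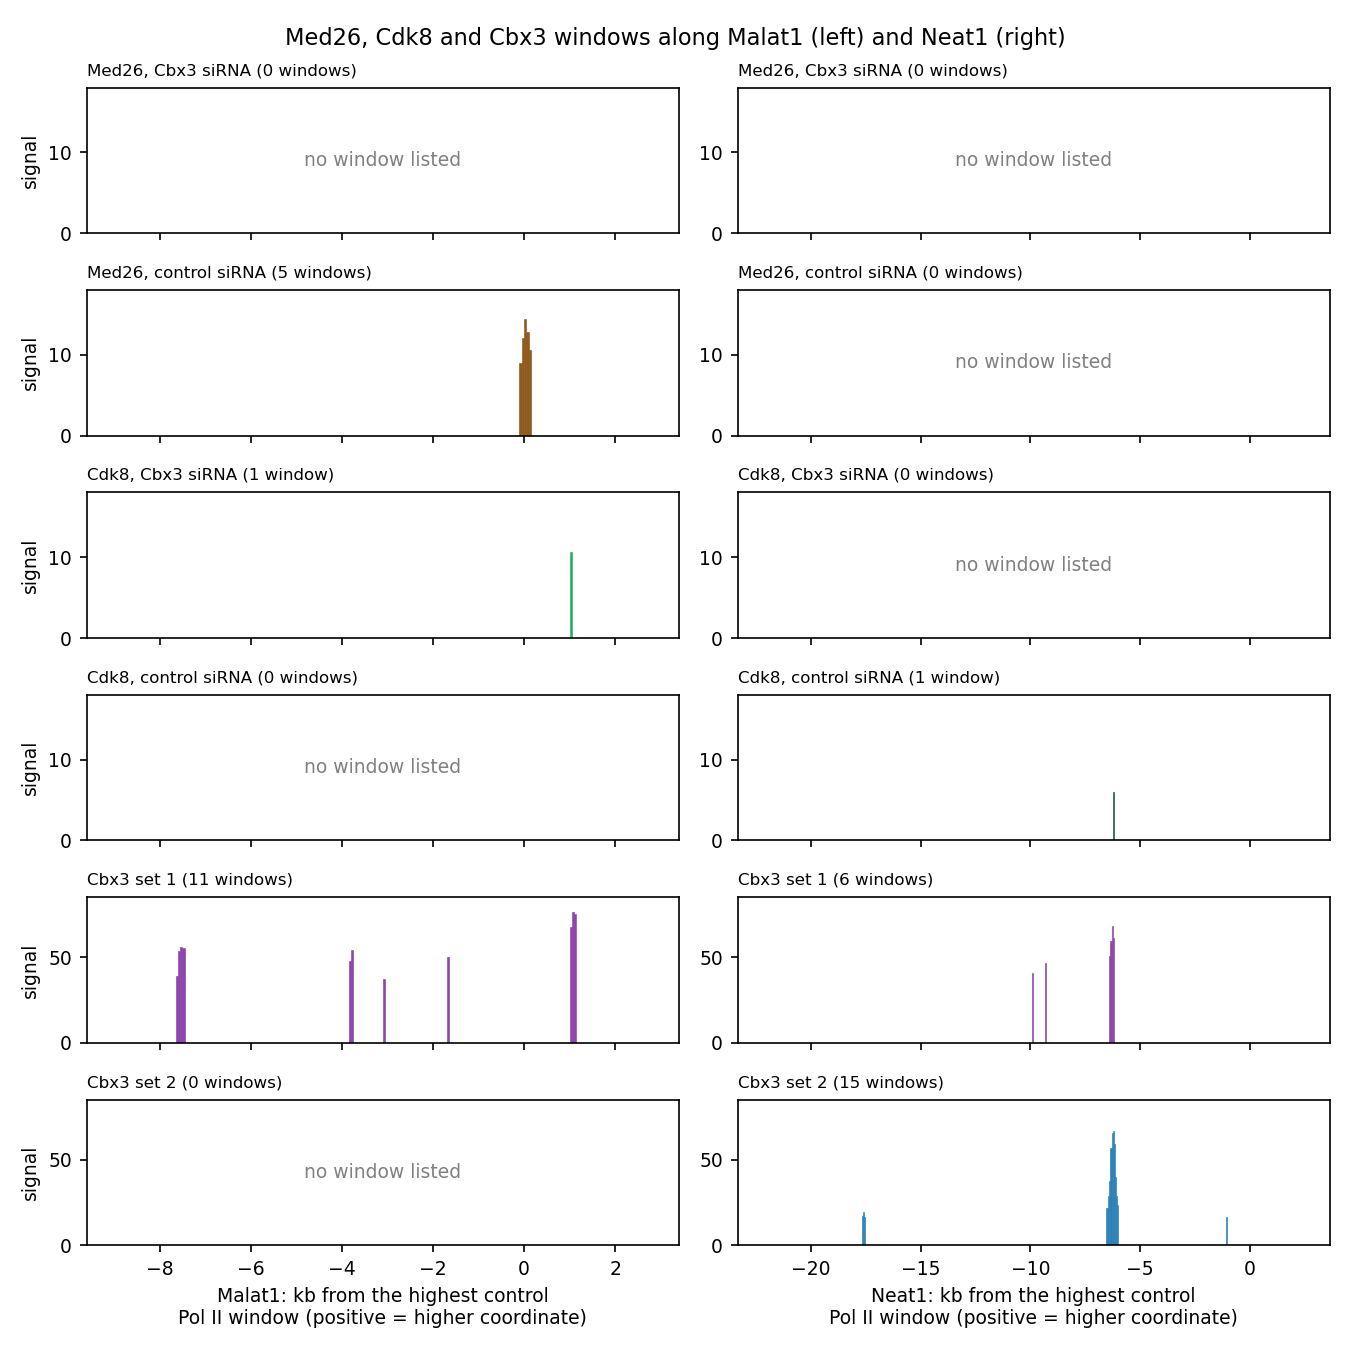
Signal (authors' units) of listed 50 bp windows of Med26, Cdk8 and Cbx3 (rows, 1 library each) along Malat1 (left) and Neat1 (right), against distance in kb from the highest control Pol II window. Med26 is listed at the Malat1 peak under control siRNA and has no window above the minimum there under Cbx3 siRNA, and both Cbx3 sets share a site 6.25 kb below the Neat1 peak.

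The tiles most like each gene were found from the listed length in all 9 libraries, as Euclidean distance of log2(bp + 50). Nearest to Malat1 were chromosome 13 from 21866001 to 21879000 (distance 1.33), chromosome 8 from 73216001 to 73229000 (1.86) and chromosome 17 from 36049001 to 36062000 (1.94). They had 2650 to 3400 bp of Pol II under Cbx3 siRNA and 3000 to 3850 bp under control siRNA, with 150 to 250 bp of control Med26 and no Med26 under Cbx3 siRNA. Nearest to Neat1 were chromosome 10 from 77463001 to 77490000 (1.39) and chromosome 8 from 28323001 to 28350000 (1.5) and from 47817001 to 47844000 (1.57). These listed 400 to 800 bp of Pol II under Cbx3 siRNA and 1000 to 1250 bp under control siRNA, with 450 to 1000 bp of Cbx3 set 2. All these lengths, Med26 included, entered the distance, so their likeness to Malat1 and Neat1 follows from how the tiles were picked. The genes in these tiles were not named, as no annotation of mm9 was used.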

How the data were processed

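Each deposited file lists 50 bp windows with a signal made by the authors from 1 library. The submitters' processing notes name Bowtie and mm9; how windows were tested and scaled, and whether inputs entered, is not stated there. Of 16 samples, the 9 ChIP libraries were used and the 7 inputs were not analysed here. Groups came from the sample titles. A window belonged to a gene when its centre lay in the interval. Windows up to 200 bp apart were joined. Windows listed in both libraries gave log2 ratios of the deposited signal, and 1.5-fold was taken as a change. Shares carry exact binomial 95% intervals and single-window ratios exact intervals on inferred reads, which cover counting error only. Steps were tested with a tolerance of 0.05 of a step. Depth per library is unknown. The genes and lists were chosen with earlier results of these data known. By rule, Malat1 and Neat1 alone were named with values, beside the 3 tiles most like each; the planned list of other nuclear RNA and paraspeckle genes got no values, since the gene table is of another build. Shares, medians, joining and steps were tested on simulated data. Window positions count from 1, as deposited. The work used Python 3.11.15 with scipy 1.17.1, numpy 2.4.6, matplotlib 3.10.9 and pandas 2.3.3.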

Additional observations from a re-analysis of the deposited data

How the results depend on the processing

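Of 62 values recomputed under alternatives for 22 results, 45 stayed close to the reported value in the same direction, 15 moved and 2 reversed; the cause of the other changes was not tested. Narrowing the intervals by 1 kb or taking windows wholly inside them changed no count. No library listed a window in the outer 1 kb of either interval, so these settings could not move a value. Their values are among the 45 and say nothing on how firm the results are. With windows at or above the library median alone, Malat1 kept 42 Pol II windows under Cbx3 siRNA, 42 under control siRNA and 28 untreated, Neat1 kept 4, 6 and 0, and its control Cdk8 window fell away (0). The share of control Pol II windows listed again was then 92.9% at Malat1 and 50% at Neat1, against 87.4% of all control windows of that class. Neat1 windows of that class reached at most 22.4, and the class as a whole 157.6, so strength is not matched. With any window within 200 bp the share listed again was 90% at Malat1 and 42.4% at Neat1, against 89.8% of all control windows. After subtracting the genome-wide median, the Pol II difference between the siRNA arms at Malat1 was 0.04, a change of direction, and control siRNA minus untreated was -0.63 at Malat1 and 0.00 at Neat1. With unlisted windows at the lowest listed signal, the Neat1 difference between the arms was -0.90, also reversed. Leaving out either Cbx3 set gave 0 to 11 Cbx3 windows at Malat1 and 6 to 15 at Neat1. The restriction of the untreated contrast to stronger windows was added after seeing the data and gave -0.03 at Malat1. The Cdk8 share at Neat1 had no control window left at or above the median. No paired analysis was possible because an arm holds a single library of each antibody. Few reads per window limit Med26, Cdk8, Cbx3 and Neat1 Pol II.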

Other observations

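Between the genes, from 5806001 to 5821999 of chromosome 19, Pol II had 1 further site in both siRNA arms. It covered 300 bp from 5809801 to 5810100 under Cbx3 siRNA, with a highest signal of 24.1, and 450 bp from 5809751 to 5810200 under control siRNA, with a highest signal of 21.7. The untreated library listed none there. Its lowest listed signal was 9.02, against 6.01 in both siRNA arms. It listed 34855 windows in all, against 101091 under Cbx3 siRNA and 116001 under control siRNA. The missing site therefore does not show that Pol II was absent in untreated cells. Cbx3 set 1 listed windows at 5810601, 5818301 and 5819801 and set 2 listed 1 at 5811801, none of them shared. Neither Med26 nor Cdk8 was listed between the genes in either arm.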
